A study of Rattus norvegicus with 6 samples.

Results

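The erythroid microRNAs miR-451, miR-144 and miR-486 were examined in the plasma of healthy rats as the 4 array entries rno-miR-451-5p, rno-miR-144-3p, rno-miR-144-5p and rno-miR-486. These entries were taken by name from the 758 rat microRNAs on the array, and all 4 were present. From each of 3 untreated male SD (Sprague-Dawley) rats aged 10 weeks, arterial blood was drawn at the abdominal aorta and venous blood at the postcava. Each rat gave 1 plasma sample of each kind, so that there were 3 arterial and 3 venous samples paired by animal, and the question was whether a microRNA is at a different level in the blood leaving and returning to the heart. Blood was drawn into EDTA tubes with an RNase inhibitor, and the plasma was centrifuged at 2 speeds and filtered before RNA was extracted. Each sample was hybridized to 1 single-colour Agilent array.

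MicroRNAs are short RNAs that guide Argonaute proteins to messenger RNAs, mostly through the seed, bases 2 to 8 from the 5′ end. miR-144 and miR-451 are cut from a shared primary transcript whose transcription depends on GATA1, the main transcription factor of red cell precursors, and both accumulate as red cells mature. miR-451 is unusual because its precursor is cut by Argonaute 2 and does not pass through Dicer. miR-486 comes from an intron of the ankyrin 1 gene and is abundant in red cells and in muscle. Mature red cells have no nucleus but keep these microRNAs, and for that reason miR-451 in plasma is widely used as a measure of haemolysis, commonly as its ratio to miR-23a, which red cells hold little of. Mature sequences were available for 3 of the 4 entries from RefSeq (rat assembly GRCr8). They are shown because each is the molecule its array entry is named for, with the seed in capitals:
rno-miR-451-5p: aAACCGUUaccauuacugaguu
rno-miR-144-3p: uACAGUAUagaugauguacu
rno-miR-144-5p: gGAUAUCAucauauacuguaagu

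The 3 seeds differ from each other, and no other mature rat microRNA in that table had any of them. rno-miR-101a-3p and rno-miR-101b-3p share bases 2 to 7 with rno-miR-144-3p. On the plus strand of chromosome 10 of GRCr8, miR-144-5p lies at chr10:63459409-63459431 and miR-144-3p at chr10:63459446-63459465, both within the Mir144 hairpin at chr10:63459397-63459479. miR-451-5p lies at chr10:63459585-63459606 in the Mir451a hairpin at chr10:63459569-63459640. The hairpins are 89 bases apart and together span 244 bases, as the map of the locus shows. They are given next with the mature microRNAs in capitals, because the place of the mature sequence in the hairpin separates miR-451 from miR-144:
Mir144: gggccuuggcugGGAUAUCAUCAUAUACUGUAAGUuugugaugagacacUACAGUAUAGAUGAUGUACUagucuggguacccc
Mir451a: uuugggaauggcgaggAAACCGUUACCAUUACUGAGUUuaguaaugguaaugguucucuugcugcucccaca

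**Figure D1:**
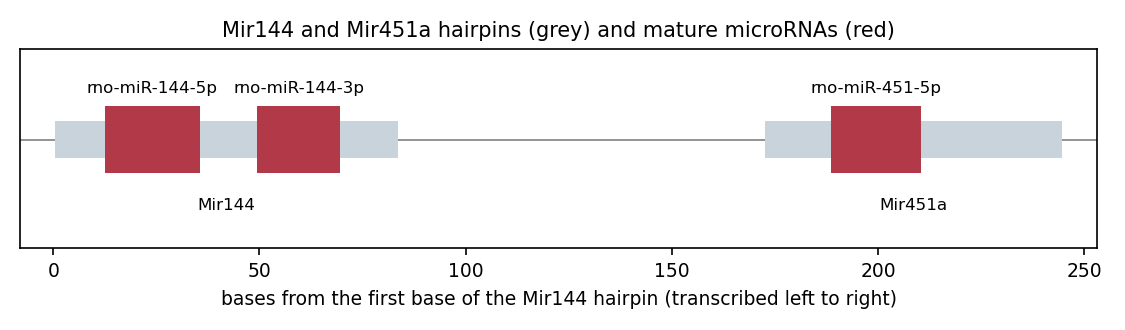
Map to scale of the Mir144 and Mir451a hairpins (grey) and the mature microRNAs within them (red), with the distance in bases from the first base of the Mir144 hairpin on the x axis. The hairpins are 89 bases apart, and Mir144 carries a mature microRNA on each side of its loop.

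In the lowest-energy fold of each hairpin, computed with RNAfold, both formed a single stem. The 23 bases of miR-144-5p all lay in the 5′ arm of Mir144 and the 20 bases of miR-144-3p all lay in the 3′ arm, on opposite sides of a loop of 6 bases. In Mir451a, 18 of the 22 bases of miR-451-5p lay in the 5′ arm and the other 4 formed the whole loop.

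Intensities are those of the microarray scanner after subtraction of the local background. An array called a microRNA detected where Feature Extraction, the scanner software, found it above background, and 137 to 175 microRNAs were detected per array, with 126 on all 6. The arrays differed in overall brightness, so each was scaled to a common 75th percentile of these 126 microRNAs. In rats 1, 2 and 3 that percentile was 94.5, 93.1 and 72.5 for arterial samples and 52.9, 125.8 and 39.7 for venous samples. No microRNA spot was saturated. The arrays of rats 1 and 2 were on 1 slide and those of rat 3 on another, so that rat 3 and its slide cannot be told apart, whereas every slide held arterial and venous samples. A probe's brightness also depends on how well it binds, so the levels below are compared between samples and not between microRNAs.

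rno-miR-451-5p, rno-miR-144-3p and rno-miR-486 were detected on all 6 arrays and rno-miR-144-5p on none. Neither miR-451-5p nor miR-144-3p differed between arterial and venous plasma beyond the spread of their within-rat differences. After scaling, the direction depended on the rat, with both lower in the arterial sample of rats 1 and 2 and both higher in that of rat 3. Scaled miR-486 had the lower value in the arterial sample of all 3 rats, whereas before scaling its arterial value was the higher in rats 1 and 3. Its scaled venous level was 1.31 times the arterial level as the geometric mean over rats, and this difference did not pass the test. With limma and the rat as a block, 0 of the 4 microRNAs passed the study's unadjusted cutoff of 0.025. Over all 758 microRNAs 4 were called higher in arterial plasma (0.528% of those tested) and 5 higher in venous plasma (0.66%). At a Benjamini-Hochberg adjusted p of 0.05, limma called 0% of the 758, with 0.756 as the lowest adjusted value and 18 microRNAs under 0.05 before adjustment, and the methods' t-test also called 0 after adjustment. Chosen after their values were seen, those called at the cutoff were rno-miR-125b-5p, rno-miR-883-5p, rno-miR-139-3p and rno-miR-3584-5p among the arterial and rno-miR-150-5p, rno-miR-342-3p, rno-miR-425-5p, rno-miR-500-3p and rno-miR-93-5p among the venous. None of them is one of the 4 erythroid entries.

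**Figure D2:**
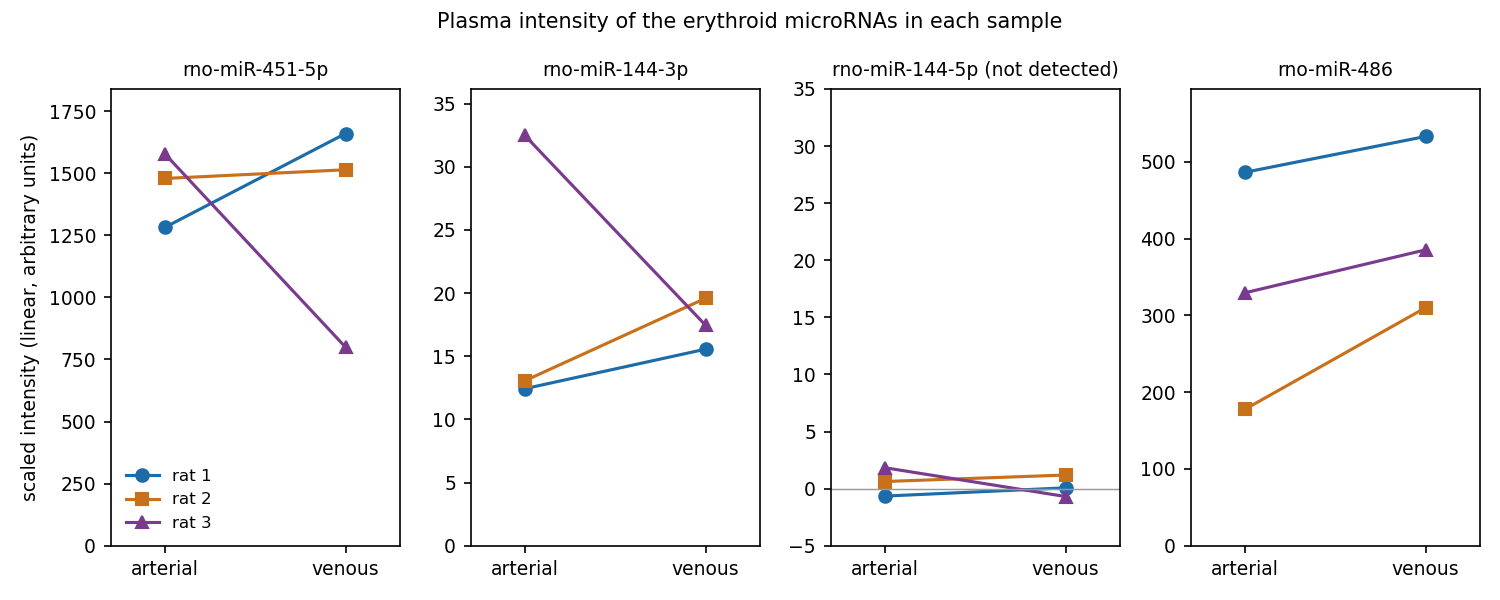
Scaled intensity (linear axis, arbitrary units, a different range in each panel) of each erythroid microRNA in the arterial and venous sample of rats 1, 2 and 3, with a line joining the samples of a rat. In rat 3 the arterial and venous values are 1578 and 799.1 for miR-451-5p and 32.5 and 17.4 for miR-144-3p, miR-486 is higher in the venous sample of every rat, and miR-144-5p lies at 0 within a few units.

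rno-miR-451-5p is the product of the Mir451a hairpin and the marker most used for red cell RNA in plasma. Before scaling, its background-subtracted intensity in rats 1, 2 and 3 was 1519, 1727 and 1435 on the arterial side. In the venous plasma of the same rats it was 1101, 2389 and 397.5. After scaling, the arterial values were 1282, 1479 and 1578 and the venous values 1660, 1514 and 799.1. The low sample was thus the venous plasma of rat 3, and the other 5 samples lay between 1282 and 1660, with arterial and venous values interleaved. Arterial plasma had a mean of 1447 ± 150.6 (SD, n = 3), and venous plasma one of 1324 ± 460.7 (SD, n = 3).

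Within rats, the arterial minus venous log2 difference of rno-miR-451-5p was -0.37, -0.03 and 0.98. On the linear scale the venous level was 1.29 times the arterial in rat 1 and 1.02 times in rat 2, and the arterial level was 1.98 times the venous in rat 3. The mean log2 difference was 0.19 (limma SE 0.383, 95% interval -1.29 to 1.67, adjusted p = 1 over 758 microRNAs). An exact sign permutation within rats gave a two-sided p = 1, and with 3 pairs this test cannot go below 0.25. Without rat 3 the mean difference was -0.20. As a share of the summed microRNA signal of its array, miR-451-5p held 6.95, 9.51 and 9.93% in arterial and 8.94, 11.7 and 5.29% in venous plasma, again lowest in the venous sample of rat 3.

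The difference in rat 3 was present on both probes for miR-451-5p. The array carries 2 probes for each of the 4 microRNAs with 8 spots each, and 12 to 16 spots per microRNA were left on an array after removal of spots that the software marked as outliers. For miR-451-5p every spot used was well above background on all arrays, and the spots of a probe had a coefficient of variation of 1.38 to 4.93%. Its dimmer probe gave log2 differences of -0.35, -0.05 and 0.98 in rats 1, 2 and 3, and its brighter probe -0.38, -0.03 and 0.98. These spots share 1 RNA sample and 1 array, so they measure the precision of an array and not the spread between plasma samples.

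**Figure D3:**
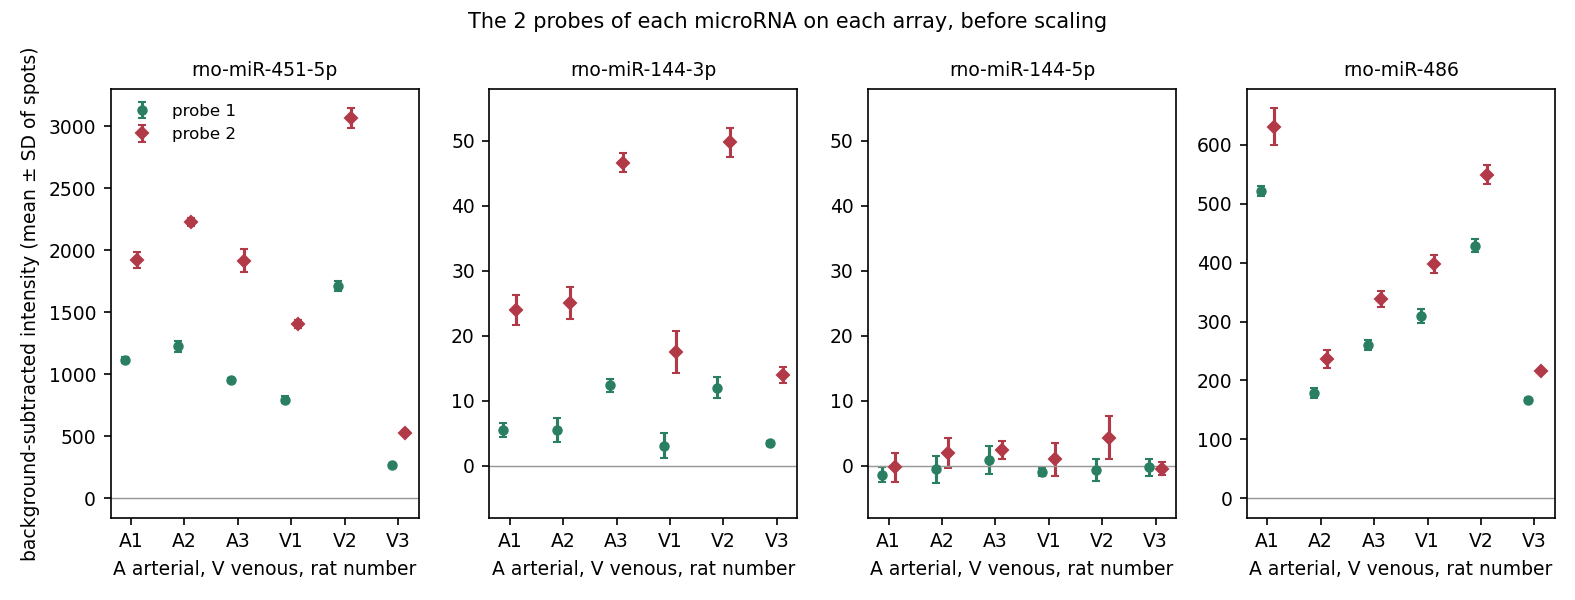
Background-subtracted intensity before scaling for both probes of each erythroid microRNA, with points for the mean and bars for the SD over the spots of that probe on an array (4 to 8 spots), for arterial (A) and venous (V) plasma of rats 1, 2 and 3. Both probes of miR-451-5p and of miR-486 follow each other over the arrays, the first probe of miR-144-3p lies near background, and both probes of miR-144-5p lie around 0.

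rno-miR-144-3p, the 3′ arm product of the neighbouring hairpin, gave a weak signal on this array. Its background-subtracted intensity was 14.7, 15.3 and 29.5 in the arterial and 10.3, 30.9 and 8.68 in the venous plasma of rats 1, 2 and 3. Scaled, it was 12.4, 13.1 and 32.5 in arterial and 15.6, 19.6 and 17.4 in venous plasma. The arterial plasma of rat 3 was the highest of the 6, the arterial samples of rats 1 and 2 were the lowest, and the 3 venous samples lay between them. The means were 19.3 ± 11.4 (SD, n = 3) and 17.5 ± 2.02 (SD, n = 3).

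The within-rat log2 differences of rno-miR-144-3p were -0.32, -0.58 and 0.90, with the same signs as those of miR-451-5p in each rat. In rat 3 the arterial level was 1.86 times the venous. The mean difference was -0.0042 (limma SE 0.43, 95% interval -1.66 to 1.66, adjusted p = 1), and the exact sign permutation within rats gave p = 1. Without rat 1, rat 2 or rat 3 it was 0.16, 0.29 and -0.45, so its sign rests on which rats are counted. Most of its signal came from 1 of its probes. That probe was well above background in every spot used on all 6 arrays and gave -0.39, -0.56 and 0.88, while the other had no spot well above background on 4 of the arrays, at least 1 of them in each rat, so no difference is given for it.

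For rno-miR-144-5p, the 5′ arm product of the same hairpin, the intensity before scaling was -0.78, 0.72 and 1.66 in the arterial and 0.043, 1.87 and -0.35 in the venous plasma of rats 1, 2 and 3. None of its spots on any array was well above background. Both groups thus have only an upper bound, and no difference is given. rno-miR-451-3p, the entry for the opposite strand of the Mir451a hairpin, was also detected on 0 arrays. From each hairpin of the locus the array therefore detected a single strand, which is a statement about these probes at this brightness.

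rno-miR-486 had an intensity before scaling of 576.2, 207.4 and 299.4 in arterial and 353.5, 489.1 and 191.7 in venous plasma. Scaled values were 486.4, 177.6 and 329.4 in the arterial and 533.1, 310 and 385.4 in the venous plasma of rats 1, 2 and 3. Each rat's scaled venous value was the higher of its pair, although the groups overlapped. Rat 1 was highest and rat 2 lowest in both kinds of plasma after scaling. Before scaling, rat 2 was the highest of the venous samples. The arterial mean was 331.1 ± 154.4 (SD, n = 3) and the venous mean 409.5 ± 113.5 (SD, n = 3).

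The log2 differences of rno-miR-486 were -0.13, -0.80 and -0.23, and the venous level was 1.75 times the arterial in rat 2 and 1.17 times in rat 3, with the smallest difference in rat 1. Their mean was -0.39 (limma SE 0.198, 95% interval -1.15 to 0.38, adjusted p = 1), and the exact sign permutation gave p = 0.25, the lowest value it can reach here. Of the 126 microRNAs detected on all arrays, 15 (11.9%), miR-486 among them, were lower in the arterial sample of all 3 rats, and 9 were higher in all 3. The 2 probes of miR-486 gave -0.08, -0.83 and -0.23, and -0.17, -0.78 and -0.23. Without rat 2 the mean was -0.18.

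**Figure D4:**
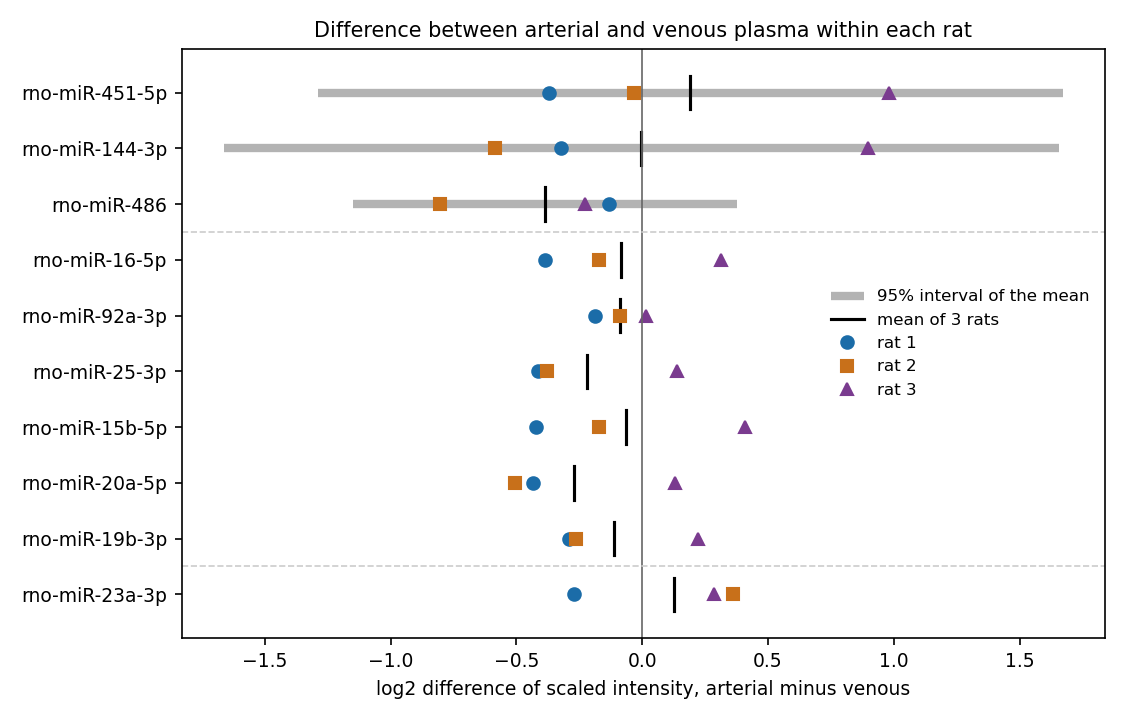
Arterial minus venous log2 difference of scaled intensity (x axis) in rats 1, 2 and 3 for the detected erythroid microRNAs (top), the other erythrocyte-associated microRNAs detected on at least 3 arrays (middle) and miR-23a-3p (bottom). Vertical bars are means over 3 rats and grey bars are limma's 95% intervals. Rat 3 lies to the right of rats 1 and 2 for miR-451-5p, miR-144-3p and the 6 microRNAs in the middle, and all 3 rats lie left of 0 for miR-486.

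Since both kinds of plasma were drawn from each animal, levels can also be compared between rats. For miR-486 the mean log2 level under the main scaling was 8.99, 7.87 and 8.48 in rats 1, 2 and 3. Its range of 1.12 is wider than its arterial to venous differences, but the order of the rats in venous plasma was different before scaling. limma's F test between rats gave an adjusted p of 0.713 over 758 microRNAs, where 0% were called at 0.05, with 0.0876 as the lowest adjusted value and 53 microRNAs under 0.05 before adjustment. In a fit restricted to the 126 always detected microRNAs, the adjusted p of miR-486 was 0.0116, and 45 of the 126 (35.7%) were called. miR-451-5p had rat means of 10.51, 10.55 and 10.13 and an adjusted p of 0.529 in that fit, and miR-144-3p had 3.80, 4.00 and 4.57 and 0.114. That smaller fit gave all microRNAs a common variance and called 1.59% of the 126, rno-miR-139-3p and rno-miR-3584-5p, between arterial and venous plasma at an adjusted p of 0.05. The adjusted p there was 0.944, 0.994 and 0.811 for miR-451-5p, miR-144-3p and miR-486.

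Ratios within an array are unaffected by any single scaling factor per array, although quantile normalization can change them. The log2 ratio of miR-451-5p to miR-23a-3p was 2.27, 1.74 and 1.94 in the arterial and 2.37, 2.14 and 1.25 in the venous plasma of rats 1, 2 and 3. The arterial minus venous differences were -0.10, -0.39 and 0.69, with a mean of 0.07 (exact sign permutation, p = 1). With quantile normalization of the microRNA values here the mean was 0.31, and in the authors' quantile-normalized table it was -0.19. The lowest ratio was again in the venous plasma of rat 3, and without rat 3 the mean was -0.25. In plasma, the number of cells that released RNA and the amount released by each cannot be told apart, and no direct measure of haemolysis such as free haemoglobin was analysed here. A part of red cell lysis in the differences was not tested.

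Between the 2 neighbouring hairpins the ratio moved less than either microRNA in rat 3. The log2 ratio of miR-451-5p to miR-144-3p was 6.69, 6.82 and 5.60 in arterial and 6.74, 6.27 and 5.52 in venous plasma, so that its differences within rats were -0.05, 0.55 and 0.09. The ratio was lowest in both samples of rat 3. Against miR-486, miR-451-5p had differences of -0.24, 0.77 and 1.21, and miR-144-3p of -0.19, 0.22 and 1.12. In rat 3 both cluster microRNAs thus had the higher value in arterial plasma and miR-486 the lower. The 6 ratios among these 3 microRNAs and miR-23a-3p gave exact sign permutation p values of 0.5 to 1, and 0.75 to 1 after Benjamini-Hochberg adjustment over the 6.

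Over the 6 arrays, miR-144-3p and miR-486 were not the microRNAs most like miR-451-5p. The scaled log2 levels of miR-451-5p and miR-144-3p had a Pearson correlation of 0.16, and 47 of 123 other detected microRNAs correlated more strongly with miR-451-5p. For miR-486 the correlation was -0.12 and 76 of 123 were higher. The 5 most alike were rno-miR-15a-5p with 0.86, rno-let-7g-5p with 0.74, rno-miR-19b-3p with 0.71, rno-miR-30e-5p with 0.68 and rno-let-7i-5p with 0.66. Before scaling the correlation with miR-451-5p was 0.76 for miR-144-3p and 0.59 for miR-486, when all values also carry the brightness of their array. The 6 points share 3 animals, 2 slides and the scaling, so these values are descriptions.

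Among 8 other microRNAs associated with erythrocytes, 6 were detected on all arrays, miR-185-5p on 1 and miR-363-3p on none. None of the 6 was called, with mean log2 differences of -0.27 to -0.06 and a median of -0.10, beside a median of 0 over all 758 microRNAs and -0.02 over the 126 detected on all arrays. Their signs were those of miR-451-5p in each rat. All 6 were lower in the arterial sample of rats 1 and 2, with medians of -0.40 and -0.22, and all 6 were higher in that of rat 3, with a median of 0.18. In rat 3 miR-92a-3p was higher by only 0.014. These signs were not particular to the list, because outside it rno-miR-106b-5p, rno-miR-20b-5p, rno-miR-30e-5p and rno-miR-215 had them too. The share of the 126 detected microRNAs with these signs was not counted. Among the platelet and white cell microRNAs below, miR-142-3p (-0.64, -0.70 and 0.69) and miR-142-5p (-0.23, -0.33 and 0.23) also had them and the others did not. miR-16-5p, an abundant red cell microRNA, had scaled levels of 310.2, 390.2 and 418.3 in arterial and 405.8, 439.6 and 337.1 in venous plasma. The 126 detected microRNAs had medians of -0.20, 0.15 and -0.03 in the 3 rats. The summed scaled level of the 6 was 743.1 to 977.5 in arterial and 857.6 to 931.8 in venous samples.

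Markers of other cells were read in the same way. All 6 platelet and white cell microRNAs were detected, with a median difference of -0.03 and summed levels of 625.1 to 944.7 in arterial and 685.6 to 935 in venous plasma. Of these, miR-150-5p, a lymphocyte microRNA, was called higher in venous plasma at the unadjusted cutoff with a difference of -0.39 (limma SE 0.0284, adjusted p = 1), lower in the arterial sample of all 3 rats. In rat 3, 5 of the 6 were higher in the arterial sample, against 0 in rat 1 and 3 in rat 2. Of 3 liver microRNAs 2 were detected, and miR-122-5p, which hepatocytes make in large amounts, had differences of -0.31, 1.48 and 0.16. Their summed level was 77.1 to 600.2 in arterial and 98.9 to 235 in venous plasma, and miR-194-5p was detected on no array.

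Skeletal muscle is another source of miR-486. Of 4 muscle microRNAs only miR-133b-3p was detected on at least 3 arrays, at 15.0, 14.8 and 38.6 in arterial and 14.7, 11.9 and 39.9 in venous plasma of rats 1, 2 and 3. It was highest in both samples of rat 3. miR-206-3p, detected on only 1 array, had 6.50, 0.78 and 0.39 in arterial and 4.04, 2.10 and 2.52 in venous plasma. miR-1-3p and miR-133a-3p were detected on no array. A part of these cell types in the differences was not tested.

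The choice of scaling moved the differences of all 3 detected microRNAs. Without any scaling the median difference of the 126 detected microRNAs was 0.40 and the differences were 0.62 for miR-451-5p, 0.42 for miR-144-3p and 0.04 for miR-486. With scaling by spike-in control spots that median was 0.50 and the differences were 0.71, 0.51 and 0.13. Both settings differ from the main scaling only by a factor per array. Relative to the median shift they therefore gave the main values of 0.21, 0.02 and -0.37 by construction. Quantile normalization, the study's method, was applied here to the microRNA values and gave differences of 0.26, 0.07 and -0.57. It gives equal values to equal ranks. Since miR-451-5p held the same rank on 5 arrays, here it kept only 2 distinct values and its differences in rats 1 and 2 became 0. In the authors' own quantile-normalized table miR-451-5p had 6 distinct values, with differences of -0.34, -0.55 and 0.62 in rats 1, 2 and 3.

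The rats differed in how far their direction held across settings. Over 11 ways of scaling, summarising or correcting the arrays, the arterial level was higher in rat 3 in 11 of 11 for miR-451-5p, with log2 differences of 0.62 to 1.92. The same held for miR-144-3p in 11 of 11 with 0.20 to 1.84. In rat 2 miR-486 was lower in arterial plasma in 11 of 11, with differences of -1.52 to -0.76, while in rats 1 and 3 it was lower in 8 of 11. Rat 1 was less settled for the cluster microRNAs, with miR-451-5p lower in arterial plasma in 7 of 11, higher in 3 and at 0 in 1 (-0.57 to 0.95), and miR-144-3p lower in 9 and higher in 2 (-0.52 to 1.00). In rat 2 miR-451-5p was lower in 10 of 11 and at 0 in 1, and miR-144-3p was lower in 11 of 11. These settings use the same 6 arrays and are not independent of each other.

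**Figure D5:**
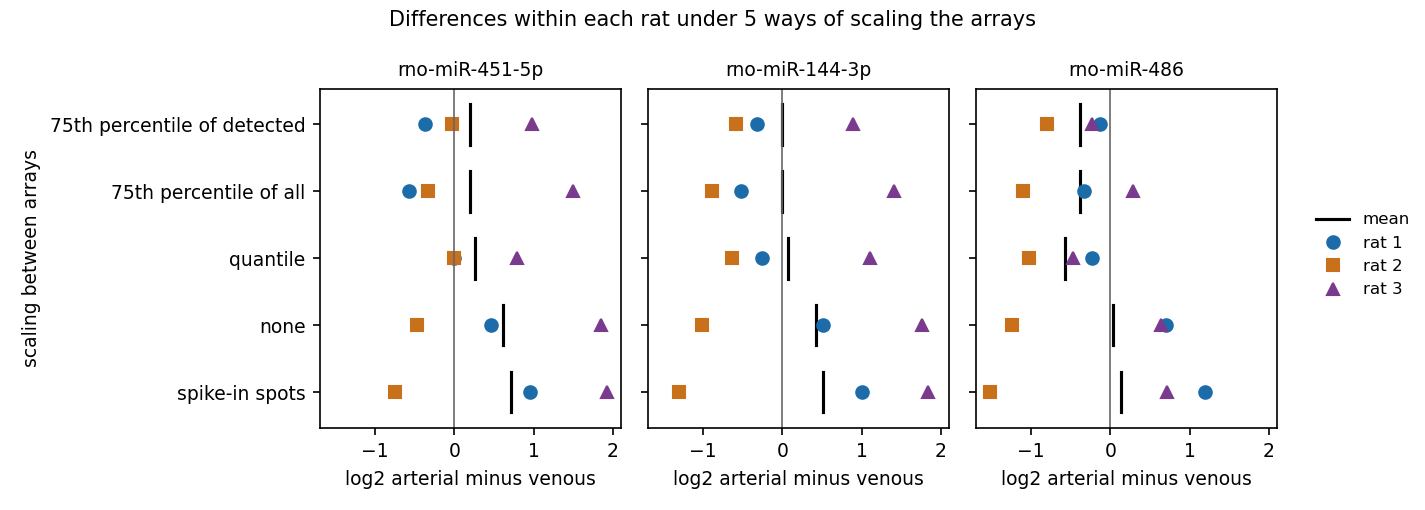
Arterial minus venous log2 difference (x axis) of the 3 detected erythroid microRNAs in rats 1, 2 and 3 under 5 ways of scaling the arrays (y axis), with vertical bars for the mean over 3 rats. Rat 3 stays above 0 for miR-451-5p and miR-144-3p under all 5, rat 2 stays below 0 for miR-486, and rats 1 and 2 coincide at 0 for miR-451-5p after quantile normalization.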

How the data were processed

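The authors deposited a spot-level output of Agilent Feature Extraction for each array, with intensity as the unit and local background subtracted (version 11.0.1.1 per the labels, 10.7.3.1 per the file headers), and a table of quantile-normalized intensities. From the spot intensities, spots marked as outliers (8.72 to 10.4% per array) were removed, spots were averaged per probe and probes per microRNA, arrays were scaled to the mean of their 75th percentiles over the 126 microRNAs detected on all 6, values under 1 were set to 1 and log2 was taken. This scaling replaced the study's quantile normalization because, when applied to microRNA values, equal ranks can hide differences of bright microRNAs. limma 3.58.1 (R 4.3.3) was fitted to all 758 microRNAs with plasma type and rat, since same-numbered samples come from the same animal. Deviations from the group means correlated at 0.87, 0.73 and 0.62 within rats and at -0.75 to 0.0092 between rats. Such deviations cancel out within a group, so positive values within rats force lower ones between rats, and the latter do not test the pairing. Hairpins were folded with RNAfold 2.7.2. The microRNAs named are the 4 entries, miR-23a-3p, the 5 most like miR-451-5p, members of 4 marker lists detected on at least 3 arrays, and, outside this rule, those called, list members seen on fewer arrays, miR-451-3p, and miR-101a-3p and miR-101b-3p for their sequence. Also outside this rule, miR-106b-5p, miR-20b-5p and miR-215 were named for their signs. The entries and lists were chosen with earlier results of these data known. The fit was tested on simulated data. Alternatives changed the scaling, background correction, summary, floor, filter, block, test and rats. The number of arrays limits the precision. Quantitative PCR was not analysed here.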

Additional observations from a re-analysis of the deposited data

How the results depend on the processing

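None of the 3 detected erythroid microRNAs passed the cutoff of 0.025 under any of 20 alternatives, 1 of which, the brightest probe of each microRNA, was chosen after seeing the data. The smallest unadjusted limma p values were 0.308 for miR-451-5p, 0.0773 for miR-144-3p and 0.0318 for miR-486. The mean difference of miR-451-5p changed sign in the authors' table (-0.089) and ranged from -0.20 to 0.47 with 1 rat left out. That of miR-144-3p changed sign with quantile normalization (0.07), no scaling (0.42), spike-in scaling (0.51) and the median over spots (0.031), and ranged from -0.45 to 0.29 with 1 rat left out. That of miR-486 changed sign with no scaling (0.037) and spike-in scaling (0.13), and ranged from -0.52 to -0.18 with 1 rat left out. The log2 ratio of miR-451-5p to miR-23a-3p changed sign with the median over spots (-0.026) and the authors' table (-0.19), was 0.31 with quantile normalization in place of 0.07, and ranged from -0.25 to 0.30 with 1 rat left out. The median over spots pools both probes, and with it the difference of miR-451-5p in rat 2 was -0.94 in place of -0.03. In that rat 8 spots of the dimmer and 5 of the brighter probe were used in arterial plasma. In its venous plasma 7 and 8 were used. The causes of these changes were not tested. miR-144-5p was detected on no array and was given no value under any alternative.

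Counts over all microRNAs moved more. Those called higher in arterial plasma were 2 with the 75th percentile over all microRNAs and with normexp, 8 with outlier spots kept, a floor of 0.1 or the authors' table, 7 with the brightest probe, 1 with the methods' t-test, 0 with a floor of 5, and 5 to 22 with 1 rat left out. Those called higher in venous plasma were 2 with quantile normalization and the 75th percentile over all, 1 with no scaling, the median over spots, the slide as block or no replicate block, 0 with spike-in scaling, normexp or microRNAs detected on at least 1 array, 8 with outlier spots kept or a floor of 0.1, 3 with the methods' t-test or microRNAs detected on all arrays, and 9 to 18 with 1 rat left out. At an adjusted p of 0.05, 2 were called between plasma types when only microRNAs detected on all arrays, or on at least 1, were fitted. Between rats, 45 and 52 were called in those fits, 1 with the 75th percentile over all or a floor of 5, 3 with a floor of 0.1 or the brightest probe, 5 with the total gene signal, 6 with normexp and 14 in the authors' table. Without the rat as a replicate block the mean differences are the same by construction, and no erythroid microRNA was called. Normexp used the median spot intensity. The weak signal of miR-144-3p on 1 of its probes limits how finely its level can be read.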
